A study of Mus musculus with 36 samples.

Results

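The transcriptome of secondary mouse embryonic fibroblasts (MEFs) after 6 days of reprogramming with both drugs was set against that of established induced pluripotent stem (iPS) cells of the same transgene design. The members are the arrays titled 2ndMEF-KOS-ZERT2 Dox+Tmx+ of day 6 (2 arrays) and the arrays titled iPS(KOS-ZERT2) (2 arrays), 4 of the 36 arrays in the series, and all probes that are not controls were considered. Both groups carry the KOS-ZERT2 transgene on a hybrid background of C57Bl/6 and 129. Day 6 cultures received doxycycline at 1.5 µg/ml and tamoxifen at 200 nM. The protocol of the iPS cells names no drug and grew them as a monolayer in ES medium with LIF. The labels give clone #1 for the secondary MEFs and clone #2 for the iPS cells, so each group stands for 1 clone, and clone and state cannot be told apart. Animal ages are not given.

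Further arrays served as landmarks, each group with 2 arrays: the same secondary MEFs with both drugs on days 1 and 3, with doxycycline alone on days 3 and 6, and uninduced (no drug) on days 1, 3 and 6, V6.5 ES cells, and untreated wild MEFs, an F1 hybrid from V6.5 without the transgene. The labels name no separate cultures for the replicates, and p-values therefore reflect only the spread between arrays, which may be technical. Slide and state cannot be told apart either, since the iPS and ES arrays lay on another slide than the day 6 arrays with doxycycline, though these were scanned on the same day. On days 1, 3 and 6 the uninduced arrays lay on another slide than the arrays with doxycycline. The day 1 arrays and the wild MEF arrays were scanned on other days than the day 3, day 6, iPS and ES arrays. In comparisons across these groups, slide or scan day and state cannot be told apart.

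As background, KOS stands for the reprogramming factors Klf4, Oct4 and Sox2, transcription factors that together with c-Myc, or without it, turn fibroblasts into pluripotent cells. ZERT2 is Zscan4 joined to a modified estrogen receptor domain, which holds a protein inactive until tamoxifen is added. Zscan4 is a protein of the zinc finger and SCAN domain family, known from the early mouse embryo and from a passing state of ES cells. Reprogramming runs through the loss of the fibroblast programme, a change toward epithelial character and, late, the start of the cells' own pluripotency network.

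Each array compared a Cy3 sample with a Cy5 common reference made of pooled mouse cell line RNA and ES cell RNA, so values are log2 ratios of sample to reference, and a difference of 1 is 2-fold. Between 54.9% and 77.1% of the probes stood well above background per array. On 33099 probes the correlation between the 2 arrays of a group was 0.988 on day 6 and 0.994 in iPS cells, as a description across probes, which are not independent replicates. Replicate 1 of the uninduced day 6 cells had a local background far above its spot in places, which was replaced as an outlier before the correction. Without that array and a wild MEF array with the same fault, 8.90% of the probes were not yet raised as defined below, against 9.03% with them. Bulk RNA was measured, so fewer cells of a state and less RNA per cell cannot be told apart.

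The deposited files give no gene names and no positions. Of 42006 probes of 60 bases, 269 matched a RefSeq promoter window or microRNA hairpin (GRCm38.p6) exactly and 108 could be tied to 1 gene by lying within its span on its strand. Of those 108 probes, 93 were tested. Whether a probe lies in an exon or an intron was not resolved, so each gene name below means a match within the gene's span. None of the 375 genes on the 16 lists of pluripotency, 2-cell, fibroblast, epithelial and other marker genes had a placed probe, so the labelled cell types could not be checked against their defining markers, and probe groups are described through the ES and wild MEF arrays in their place.

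Of the named probes described below, 4 sequences are shown, at least 1 for each direction in which day 6 cells stood apart from iPS cells. They come from the array design and match RefSeq's GRCm38.p6. Each is given 5′ to 3′ on its gene's strand, and capitals mark the longest run of whole codons without a stop codon in any frame of that strand. Adk lies at chr14:21052627-21052686 (plus strand), Fam180a at chr6:35312995-35313054 (minus strand), Abhd6 at chr14:8055589-8055648 (plus strand) and Bcl11a at chr11:24172868-24172927 (plus strand).
Adk, lower on day 6: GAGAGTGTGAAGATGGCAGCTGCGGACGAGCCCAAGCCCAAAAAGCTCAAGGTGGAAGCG
Fam180a, higher on day 6: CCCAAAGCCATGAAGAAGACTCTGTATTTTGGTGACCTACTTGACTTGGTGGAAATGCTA
Abhd6, higher on day 6: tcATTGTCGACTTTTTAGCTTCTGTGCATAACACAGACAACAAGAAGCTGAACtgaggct
Bcl11a, lower on day 6: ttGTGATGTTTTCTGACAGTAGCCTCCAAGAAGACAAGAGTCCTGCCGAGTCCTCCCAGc
The capitals ran through all 60 bases of the Adk and Fam180a probes. A stop codon closed the run in the Abhd6 probe.

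Day 6 cultures remained far from iPS cells. Of 33098 probes with a value in both groups, 13787 (41.7%) were higher and 10636 (32.1%) were lower on day 6 at an adjusted p below 0.05 (limma with Benjamini-Hochberg adjustment over all probes). With a 2-fold minimum, 6257 (18.9%) were higher and 3606 (10.9%) were lower, and with a 4-fold minimum 2706 were higher and 1060 lower. The median absolute difference was 0.50. The excess of higher over lower probes depended on the scaling. Probes higher on day 6 made up 63.4% of the 2-fold calls from the normalized ratio, 48.9% from the sample channel alone and 54.0% from the scanner software's own ratio. All 9863 of the 2-fold calls kept their sign in the sample channel alone. For scale, iPS and ES cells differed by 2-fold at 39 probes in each direction.

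ES cells gave nearly the same picture as iPS cells. Against ES cells, 6192 probes (18.7%) were at least 2-fold higher on day 6 and 3611 (10.9%) at least 2-fold lower. That comparison shares its day 6 arrays with the one against iPS cells.

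The gap was split by what iPS cells do relative to uninduced cells of the same day, with a 2-fold minimum on each side. Relative to uninduced cells, day 6 cultures themselves were at least 2-fold higher at 2681 probes (8.10%) and at least 2-fold lower at 1968 (5.95%). Not yet raised were 2990 probes, at least 2-fold above uninduced cells in iPS cells and at least 2-fold below iPS cells on day 6. Not yet lowered were 4169 probes of the opposite pattern. Raised beyond iPS were 1763 probes at least 2-fold above both iPS cells and uninduced cells on day 6, and lowered beyond iPS were 331 probes at least 2-fold below both. The classes overlap, with 389 probes both not yet lowered and raised beyond, and 68 probes both not yet raised and lowered beyond. The values that define a class chose its members, so their sizes are a description. Counts given below as outside the class rule come from arrays that the rule did not use; those against iPS or uninduced day 6 arrays share arrays with it and are a description too.

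**Figure D1:**
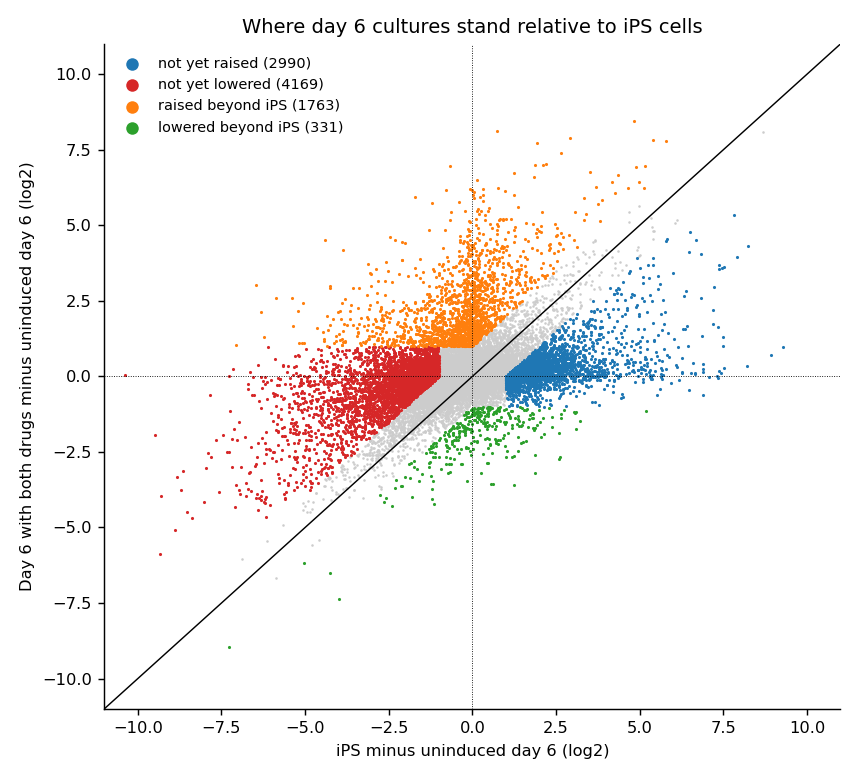
Each point is 1 of the tested probes, with iPS minus uninduced day 6 on the x axis and day 6 with both drugs minus uninduced day 6 on the y axis (both log2); the solid line marks day 6 cultures equal to iPS cells, colours mark the 4 classes, and a probe in 2 classes has the colour of the one listed later. The 2990 not yet raised probes lie right of the line near a change of 0, the 4169 not yet lowered probes left of it, and the 1763 raised beyond iPS mostly along the vertical line where iPS and uninduced cells differ little.

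Of the 4248 probes that iPS cells held at least 2-fold above uninduced cells, 1106 were not called 2-fold apart from iPS cells on day 6. The matching count for the 5944 probes that iPS cells held at least 2-fold below uninduced cells was 1731.

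The not yet raised probes lay near their uninduced level of day 6. Their median log2 ratio was -1.0 and -0.98 on the 2 day 6 arrays, against 0.73 and 0.75 on the iPS arrays. Uninduced arrays of day 6 stood at -1.15 and -1.13. The class rule favours this nearness, since it keeps only probes still 2-fold short of iPS cells. Both states had stood higher before, at -0.74 and -0.69 with both drugs and -0.70 and -0.73 uninduced on day 1. With both drugs the median was -0.74 on each day 3 array. With uninduced day 1 as the starting state, 6.96% of the probes were not yet raised, against 9.03% as reported. The median difference of day 6 to iPS cells was -1.63 (quartiles -2.26 and -1.29). A gap of at least 4-fold remained at 987 probes and of at least 16-fold at 149. Relative to uninduced cells, 242 of the 2990 had risen by at least 2-fold (8.09%, against 8.10% of all probes). Another 1050 had risen by less (35.1%), where 30.8% of all probes were called higher at any size. The test was not passed by 1259 (42.1%, against 42.4% of all probes), and 439 were lower than in uninduced cells (14.7%, against 26.8%). On day 6, 163 were not well above background on either array, so that their gap is only a bound.

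On arrays outside the class rule, 2959 of the 2990 were called higher in ES cells relative to wild MEFs (99.0%, against 33.4% of all probes), 2540 of them by at least 2-fold (84.9%, against 12.0% of all probes). The ES arrays shared a slide with the iPS arrays. Since iPS and ES cells were nearly alike, the class rule all but set this direction. Among all 4248 probes that iPS cells held at least 2-fold above uninduced cells, the shares were 98.8% and 80.1%. On day 3, 1534 were called higher with both drugs than in uninduced cells (51.3%, against 33.0% of all probes) and 478 lower (15.99%, against 27.9%). By contrast 696 were called higher on day 1 (23.3%, against 23.7% of all probes) and 718 lower (24.0%, against 23.2%), shares close to those of all probes. The median day 3 difference was 0.20 and the median day 1 difference -0.03. The not yet raised probes thus leaned upward by day 3 and not on day 1, at a small median size. Of all 4248 probes that iPS cells held at least 2-fold above uninduced cells, 62.2% were called higher on day 3 and 11.7% lower. On day 1, 33.4% of them were called higher and 19.5% lower. The class thus leaned upward less than the probes it was drawn from.

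Tamoxifen beside doxycycline was measured on day 3, also outside the class rule. Of the not yet raised probes, 417 were called higher with both drugs than with doxycycline alone (13.9%, against 5.20% of all probes) and 14 lower (0.468%, against 2.14%), with a median difference of 0.08. Of the not yet lowered probes, 119 were higher (2.85%) and 368 lower (8.83%), with a median of -0.07. These differences are small beside the gap that remained. Of all 4248 probes that iPS cells held at least 2-fold above uninduced cells, 17.1% were higher with tamoxifen and 0.730% lower. Of all 5944 held at least 2-fold below, 2.49% were higher and 7.52% lower. Neither lean was thus particular to its class.

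Named members of the not yet raised class were few, and most of them did not pass the test against uninduced cells of day 6. Gnl3, a nucleolar GTP-binding protein of stem and proliferating cells, had log2 ratios of -0.83 and -0.82 on day 6, against 1.07 and 1.02 in iPS cells, a difference of -1.87 ± 0.10 (SE, adjusted p = 4.4e-15, limma). Its groups did not overlap. ES cells lay at 0.99 and 0.80, close to the iPS arrays, and wild MEFs at -1.08 and -1.24. Uninduced cells averaged 0.01 on day 1 and cultures with both drugs averaged -0.16 on day 1 and -0.56 on day 3, so the Gnl3 means were lower at each later day with both drugs. Uninduced cells of day 6 were low too, at -0.58 and -0.79, and the difference of day 6 cultures with both drugs from them was -0.14 (adjusted p = 0.232, limma).

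Zbtb8a, a zinc finger and BTB domain protein, had -1.25 and -1.43 on day 6, against 1.13 and 1.17 in iPS cells, a difference of -2.49 ± 0.10 (SE, adjusted p = 1.78e-17, limma). It was 0.33 above uninduced cells of day 6 (adjusted p = 0.00609, limma), small beside the gap. A probe within Rpl38, a protein of the large ribosomal subunit, had -2.0 and -1.89 on day 6, against 0.87 and 0.89 in iPS cells, a difference of -2.83 ± 0.10 (SE, adjusted p = 2.03e-18, limma). Ribosomal protein genes have many near-identical copies, so this assignment is uncertain.

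Adk, adenosine kinase, stood at -1.07 and -1.06 on day 6, against 0.16 and 0.18 in iPS cells, a difference of -1.23 ± 0.10 (SE, adjusted p = 2.08e-11, limma). Gtf2h4, a subunit of the general transcription and DNA repair factor TFIIH, stood at -1.03 and -0.93 on day 6, against 0.27 and 0.21 in iPS cells, a difference of -1.22 ± 0.06 (SE, adjusted p = 3.58e-15, limma). For both genes the difference from uninduced cells of day 6 missed the threshold (adjusted p = 0.0846 for Adk and 0.0718 for Gtf2h4, limma).

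The largest gaps of the class belonged to probes without a gene name. Probe Z00034687-1 had -6.33 and -6.42 on day 6, against 1.91 and 1.97 in iPS cells, a difference of -8.32 ± 0.10 (SE, adjusted p = 2.07e-27, limma), and probe Z00072411-1 had -6.42 and -6.50 on day 6, against 1.76 and 1.72 in iPS cells. Both were raised slightly over uninduced cells of day 6, by 0.97 and 0.72 on the log2 scale. With doxycycline alone on day 6 they averaged -7.35 and -6.98, while both stood near 1.75 and 1.50 in ES cells.

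The not yet lowered probes were still close to their uninduced level of day 6, which the class rule favours too. Their median log2 ratio was 0.75 and 0.74 on the day 6 arrays, against -1.23 and -1.25 on the iPS arrays. Uninduced cells of day 6 had 0.86 and 0.89. On day 1 the median had been lower, at 0.59 and 0.58 with both drugs and 0.56 and 0.52 in uninduced cells. The median difference of day 6 to iPS cells was 1.95 (quartiles 1.43 and 2.79), with 2009 probes at least 4-fold and 392 at least 16-fold higher. Relative to uninduced cells, 643 of the 4169 had fallen by at least 2-fold (15.4%, against 5.95% of all probes). Another 1222 had fallen by less (29.3%), where 26.8% of all probes were called lower at any size. The test was not passed by 1003 (24.1%, against 42.4% of all probes). The 1301 higher than in uninduced cells made up 31.2%, close to the 30.8% of all probes. In iPS cells 366 were not well above background on either array.

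Outside the class rule, 4127 of the 4169 were called lower in ES cells relative to wild MEFs (99.0%, against 40.0% of all probes), 3719 of them by at least 2-fold (89.2%, against 17.5% of all probes). Here too the class rule all but set the direction. Among all 5944 probes that iPS cells held at least 2-fold below uninduced cells, the shares were 98.3% and 84.0%. With both drugs on day 3, 1899 were called lower than in uninduced cells of day 3 (45.5%, against 27.9% of all probes) and 1431 higher (34.3%, against 33.0%). On day 1, 1537 were called lower (36.9%, against 23.2% of all probes) and 1487 higher (35.7%, against 23.7%). The class thus held more probes of both directions than all probes did on day 1, and more lower than higher ones on day 3. Of all 5944 probes that iPS cells held at least 2-fold below uninduced cells, 56.9% were called lower on day 3 and 25.1% higher. On day 3 the class thus leaned downward less than the probes it was drawn from.

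**Figure D2:**
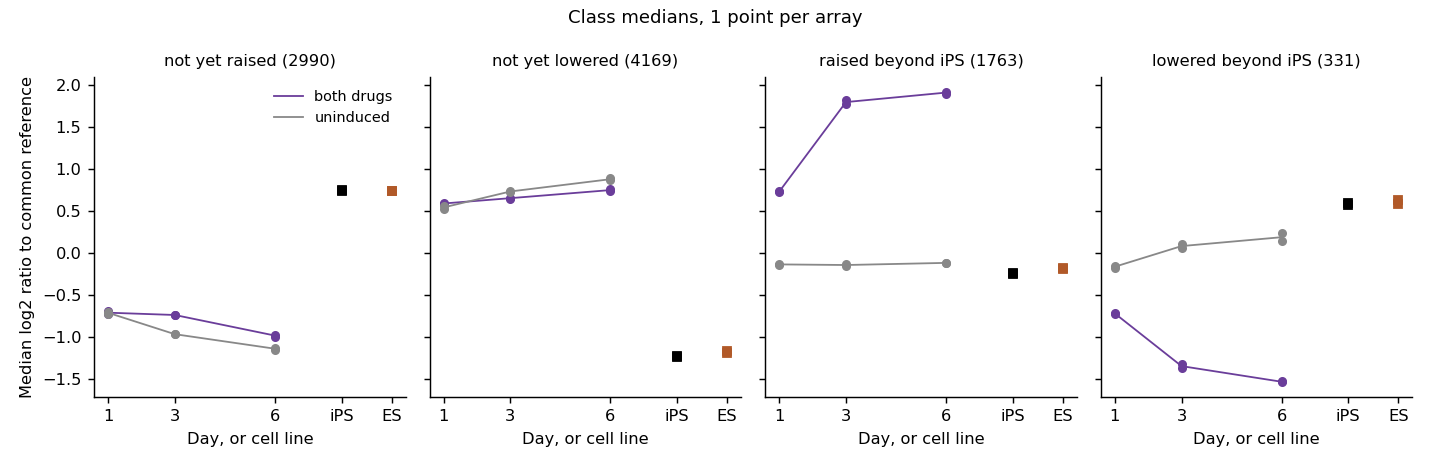
The median log2 ratio to the common reference is shown for the 4 classes, 1 point per array, by day for cultures with both drugs and uninduced cultures (lines join the means of the 2 arrays) and then for iPS and ES cells. Medians of the not yet raised and not yet lowered classes stay near the uninduced line through day 6, whereas the raised beyond iPS median is 1.92 and 1.90 on day 6, against -0.25 and -0.26 in iPS cells.

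Named members of the not yet lowered class had fitted gaps from 1.05 to 5.41 on the log2 scale. The largest belonged to Fam180a (5.41) and 4930523C07Rik (2.34), which are also raised beyond iPS and are described with that class. Tulp4, a tubby-like protein, had 1.12 and 1.13 on day 6, against -1.12 and -0.93 in iPS cells, a difference of 2.15 ± 0.10 (SE, adjusted p = 1.08e-15, limma), and did not pass the test against uninduced cells of day 6, which averaged 1.12. Mapkbp1, a protein that binds stress-activated MAP kinases, had 0.75 and 0.87 on day 6, against -0.57 and -0.61 in iPS cells, and was 0.28 above uninduced cells of day 6 (adjusted p = 0.000958, limma).

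Ntng1, netrin G1, a membrane-anchored guidance protein of neurons, had 1.45 and 1.31 on day 6, against 0.36 and 0.07 in iPS cells. S100a7a, a calcium-binding S100 protein, had 0.49 and 0.50 on day 6, against -0.56 and -0.56 in iPS cells. The S100a7a probe was 0.46 below uninduced cells of day 6 (adjusted p = 0.000148, limma). Before that it had averaged 2.09 on day 1 with both drugs, against 0.82 in uninduced cells of day 1, and 0.58 on day 3 with both drugs. The day 6 and iPS arrays did not overlap for Tulp4, Mapkbp1, Ntng1 or S100a7a. The unnamed probe with the largest gap, Z00024982-1, had 5.52 and 5.66 on day 6, against -4.71 and -4.97 in iPS cells, and uninduced cells of day 6 had 5.54 and 5.55.

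The raised beyond iPS class, chosen for a rise over uninduced cells by day 6, had risen early. Its median log2 ratio was 1.92 and 1.90 on day 6, against -0.25 and -0.26 in iPS cells and -0.12 on both uninduced arrays of day 6. The median difference of day 6 to iPS cells was 2.36 (quartiles 1.61 and 3.37), with 1086 of the 1763 probes at least 4-fold and 275 at least 16-fold above iPS cells. Relative to the states at either end, 1222 probes had iPS cells that were not called 2-fold different from uninduced cells. Another 389 lay in the direction away from iPS cells, already higher in uninduced than in iPS cells and raised further. The remaining 152 overshot, raised in iPS cells and raised more on day 6. In iPS cells 360 of the 1763 were not well above background on either array, so for these the excess is only a bound.

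Day 1 and day 3 arrays, which the class rule did not use, already held the rise. With both drugs, 1424 of the 1763 were called higher than in uninduced cells on day 1 (80.8%, against 23.7% of all probes), 829 by at least 2-fold (47.0%, against 4.61% of all probes). On day 3, 1733 were called higher (98.3%, against 33.0% of all probes), 1487 by at least 2-fold (84.3%, against 8.94% of all probes). The median rise was 0.93 on day 1 and 1.90 on day 3. An early rise was not particular to this class. Of the 1106 probes that iPS cells held above uninduced cells and that were not called 2-fold apart from iPS cells on day 6, 52.7% were called higher on day 1. On day 3 the share was 86.5%. With doxycycline alone on day 6, 1585 of the 1763 were also at least 2-fold above iPS cells (89.9%, against 18.6% of all probes), with a median difference of 2.16, on the iPS arrays that the class rule used. Tamoxifen beside doxycycline on day 3 left 337 called higher (19.12%, against 5.20% of all probes) and 96 called lower (5.45%, against 2.14%).

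The 3 subgroups were chosen by iPS relative to uninduced cells, and differences between them were not tested. Of the 152 overshooting probes, 151 were called higher in ES cells relative to wild MEFs (99.3%, against 33.4% of all probes), and 61 were higher on day 3 with tamoxifen than without (40.1%, against 5.20%). Of the 389 probes going away from iPS cells, 382 were lower in ES cells relative to wild MEFs (98.2%, against 40.0%). The choice of these subgroups all but set both ES shares. Of all probes that iPS cells held at least 2-fold above uninduced cells, 98.8% were higher in ES cells relative to wild MEFs. Of those held at least 2-fold below, 98.3% were lower. Of the 1222 probes on which iPS and uninduced cells were not called 2-fold different, 338 were higher and 472 lower in ES cells relative to wild MEFs. These shares were 27.7% and 38.6%, against 33.4% and 40.0% of all probes. With a 2-fold minimum the shares were 3.03% and 8.10%, below the 12.0% and 17.5% of all probes, which the choice of this subgroup favours. Over the whole class, 163 were at least 2-fold higher and 425 at least 2-fold lower in ES cells relative to wild MEFs (9.25% and 24.1%, against 12.0% and 17.5% of all probes).

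Among named genes the excess was largest for Fam180a, a protein of little known function. Fam180a had 2.82 and 2.70 on day 6, against -2.73 and -2.57 in iPS cells, and the iPS signal was not well above background on either array, so day 6 was at least 35.2-fold above iPS cells (fitted difference 5.41 ± 0.11 SE, adjusted p = 2.7e-23, limma). Uninduced cells of day 6 had 0.31 and 0.50, so both drugs had raised this probe by 2.35 on the log2 scale. It stood at 2.54 and 2.47 on day 1 and at 1.84 and 1.75 on day 3 with both drugs, and at 2.96 and 2.80 with doxycycline alone on day 6. In wild MEFs it stood at 1.03 and 1.07, and in ES cells at -2.64 and -2.32.

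Abhd6, a hydrolase of monoacylglycerol lipids, had 1.52 and 1.58 on day 6, against -0.11 and -0.13 in iPS cells, a difference of 1.67 ± 0.05 (SE, adjusted p = 8.56e-21, limma). Uninduced cells of day 6 lay at 0.03 and -0.04, near iPS cells. The level averaged 1.05 on day 1 and 1.82 on day 3 with both drugs. It was 0.30 above doxycycline alone on day 6 (adjusted p = 4.34e-05, limma) and 0.23 above it on day 3 (adjusted p = 0.0016, limma).

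A probe within 4930523C07Rik, a gene known only by its clone name, had 1.31 and 1.36 on day 6, against -0.98 and -1.02 in iPS cells, where 1 of 2 arrays stood above background. The unnamed probes with the largest excess were Z00036124-1, with 3.23 and 3.17 on day 6, against -6.29 and -6.29 in iPS cells, and Z00040793-1, with 4.21 and 4.32 on day 6, against -4.64 and -4.69 in iPS cells. In uninduced cells of day 6 they averaged 0.17 and -0.25.

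Probes lowered beyond iPS cells were the smallest class. Their median log2 ratio was -1.54 and -1.53 on day 6, against 0.59 and 0.57 in iPS cells and 0.13 and 0.24 in uninduced cells of day 6. Here too the change came early. With both drugs 228 of the 331 were called lower than in uninduced cells on day 1 (68.9%, against 23.2% of all probes) and 299 on day 3 (90.3%, against 27.9%). Bcl11a, a zinc finger transcription factor best known for silencing fetal globin in red blood cells, had -1.07 and -1.13 on day 6, against 0.59 and 0.58 in iPS cells, a difference of -1.69 ± 0.05 (SE, adjusted p = 1.49e-19, limma).

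The Bcl11a probe averaged 0.20 in uninduced cells of day 6 and -0.26 in those of day 1. ES cells had 0.02 and 0.01, below iPS cells, and the difference of day 6 to ES cells was -1.12. With both drugs the probe averaged 0.19 on day 1 and -0.62 on day 3, and with doxycycline alone it averaged -1.17 on day 6. The low level of this probe thus appeared in the day 3 and day 6 means and not on day 1. The unnamed probes with the largest deficit were Z00064751-1, with -4.63 and -4.68 on day 6, against 1.68 and 1.66 in iPS cells, and Z00013525-1, with -3.68 and -3.62 on day 6, against 1.67 and 1.68 in iPS cells.

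**Figure D3:**
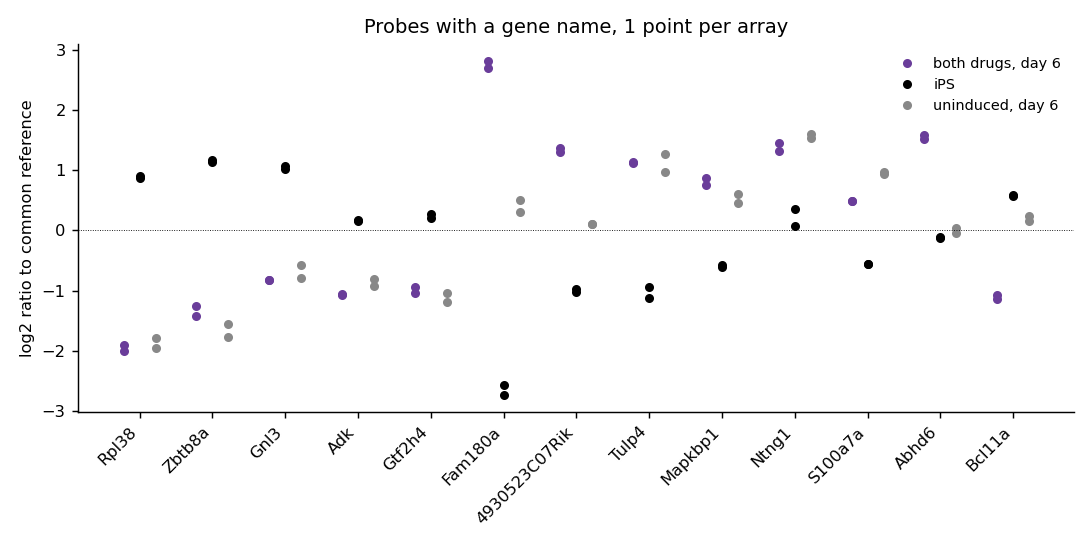
The log2 ratio to the common reference is shown for each probe tied to a gene and named in a class, with 1 point per array for day 6 with both drugs, iPS cells and uninduced cells of day 6. Day 6 and iPS points do not overlap for any gene shown, with Fam180a the widest apart at 2.82 and 2.70 on day 6, against -2.73 and -2.57 in iPS cells.

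Another division of the probes used the landmark arrays. ES-high probes were the 1201 at least 4-fold higher in ES cells than in untreated wild MEFs, and MEF-high probes the 2507 at least 4-fold lower. Neither set used day 6 or iPS arrays. On day 6 with both drugs, 933 of the 1201 ES-high probes were still at least 2-fold lower than in iPS cells (77.7%, against 10.9% of all probes), 207 were within 2-fold and 61 were at least 2-fold higher. Of the 2507 MEF-high probes, 2014 were still at least 2-fold higher (80.3%, against 18.9% of all probes), 463 were within 2-fold and 30 were at least 2-fold lower. Since iPS and ES cells were nearly alike, the choice of the sets all but fixed these directions for uninduced cells. In uninduced cells of day 6, 97.5% of ES-high probes were at least 2-fold lower than in iPS cells. Of the MEF-high probes, 96.6% were at least 2-fold higher there.

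Per array, the ES-high median was -1.14 and -1.14 on day 6, against 1.06 and 1.08 in iPS cells, with -1.99 and -1.98 in uninduced cells of day 6. The MEF-high median was 0.47 and 0.43 on day 6, against -1.88 and -1.90 in iPS cells, with 1.09 and 1.11 in uninduced cells of day 6. Both sets therefore lay between uninduced and iPS cells, nearer to the uninduced.

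The distance to iPS cells did not shrink steadily over the 3 days sampled. With both drugs, the ES-high probes had a median difference to iPS cells of -2.37 on day 1, -1.99 by day 3 and -2.17 by day 6. The MEF-high median difference was 2.14, 2.10 and 2.25 over the same days. All of these differences share the 2 iPS arrays. Doxycycline alone on day 6 gave -2.36 for ES-high and 2.32 for MEF-high probes. Uninduced cells lay further from iPS cells on each later day, with ES-high medians of -2.65, -2.80 and -2.93 and MEF-high medians of 2.24, 2.58 and 2.89 on days 1, 3 and 6.

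**Figure D4:**
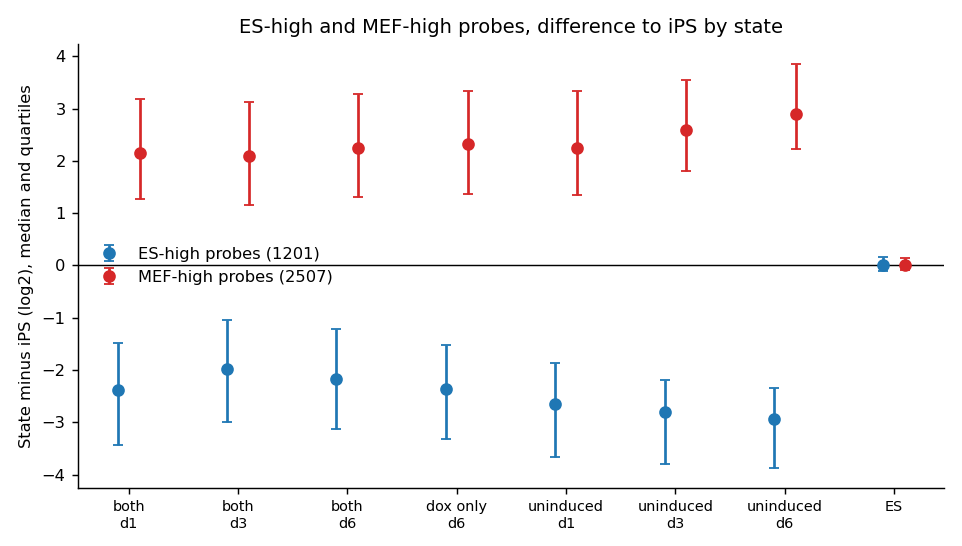
For ES-high (1201) and MEF-high (2507) probes, the points give the median difference of each state to iPS cells (log2) and the bars the quartiles over probes; states run from both drugs by day through doxycycline alone and uninduced cells to ES cells. ES-high medians lie between -2.37 and -1.99 with both drugs and reach -2.93 in uninduced cells of day 6.

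Day 6 was also compared directly with day 3 under both drugs. Over all probes, 6194 (18.7%) were higher and 7406 (22.4%) were lower on day 6, and 381 and 348 passed 2-fold. Of the ES-high probes, 255 were higher on day 6 than on day 3 and 527 lower, with a median of -0.16. Of the MEF-high probes, 1029 were higher and 537 lower, with a median of 0.11. By this measure more ES-high probes were lower than higher on day 6 relative to day 3, and more MEF-high probes were higher than lower. Uninduced cells shifted in the same directions. Their median difference to iPS cells was -2.80 on day 3 and -2.93 on day 6 for ES-high probes. For MEF-high probes it was 2.58 on day 3 and 2.89 on day 6.

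Over all probes, cultures with both drugs differed from iPS cells by at least 2-fold at 5338 higher and 3194 lower probes on day 1, at 6201 higher and 3075 lower on day 3, and at 6257 higher and 3606 lower on day 6. With doxycycline alone on day 6 there were 6169 higher and 3729 lower. In uninduced cells there were 4912 higher and 3493 lower on day 1, 5418 higher and 3804 lower on day 3, and 5944 higher and 4248 lower on day 6. By this count the cultures with both drugs lay slightly further from iPS cells than uninduced cells on days 1 and 3, and nearer on day 6. The median absolute difference gave the same order, at 0.434 against 0.428 on day 1 and 0.482 against 0.466 on day 3. The root mean square difference gave the reverse on those days, at 1.239 against 1.243 and 1.279 against 1.309. The order on days 1 and 3 thus depended on the measure, and the differences between these values were not tested.

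With tamoxifen beside doxycycline, more ES-high probes were higher than lower. On day 6, 457 of the 1201 were higher with both drugs than with doxycycline alone (against 6.81% of all probes) and 13 were lower (against 2.43% of all probes), with a median difference of 0.17. On day 3, 352 were higher and 14 lower (29.3% and 1.17%, against 5.20% and 2.14% of all probes), with a median of 0.14. MEF-high probes were lower at 309 and higher at 111 on day 6, with a median of -0.07.

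How far each probe had travelled was expressed as the share of the way between the uninduced and the iPS level of day 6, for set members on which those levels were at least 4-fold apart in the direction of the set. The median share was 21.3% over 1031 ES-high probes and 22.5% over 2084 MEF-high probes. Of the ES-high probes, 40.7% had covered between 0 and 25% of the way, 14.4% had moved backwards and 8.63% had passed the iPS level. Of the MEF-high probes, 28.1% had covered between 0 and 25%, 24.8% had moved backwards and 2.16% had passed the iPS level. Since the uninduced, day 6 and iPS arrays all enter the share, it is a description with no test.

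**Figure D5:**
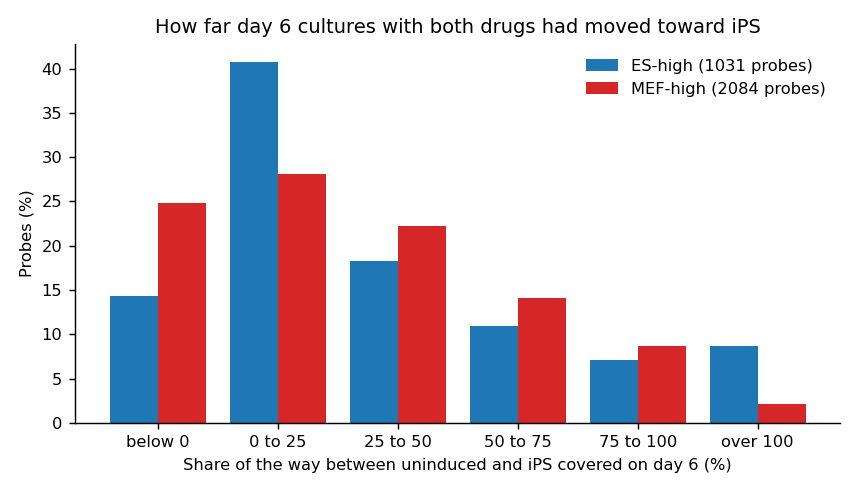
Bars give the percent of ES-high (1031) and MEF-high (2084) probes by the share of the way between the uninduced and the iPS level that day 6 cultures with both drugs had covered. The tallest bars are at 0 to 25%, with 40.7% of ES-high and 28.1% of MEF-high probes.

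The design of the probes differed little between classes. Median GC content was 43.3% in the not yet raised, not yet lowered and lowered beyond classes and 45% in the raised beyond class, against 45% over all tested probes. A poly(A) signal (the letters AATAAA or ATTAAA on the probe's strand) was present in 11.2% of not yet raised, 13.2% of not yet lowered, 11.2% of raised beyond and 15.1% of lowered beyond probes, against 10.3% of all tested probes.

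The reference channel, which holds the same RNA on every array, differed by at least 2-fold between day 6 and iPS arrays at 111 of all tested probes (0.335%), and 86 of these lay in the raised beyond class (4.88% of that class). The counts were 2 of the not yet raised (0.0669%), 26 of the not yet lowered (0.624%) and none of the lowered beyond probes. Its part in the raised beyond class was not tested further than by the sample channel alone, on the same day 6 and iPS arrays. The sample channel alone differed by at least 2-fold in the same direction at 2978 of the 2990 not yet raised, 3835 of the 4169 not yet lowered, 1692 of the 1763 raised beyond and 328 of the 331 lowered beyond probes.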

How the data were processed

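The deposited files were scanner output of 36 2-colour Agilent arrays, with Cy3 on the sample and Cy5 on the common reference and no dye swap per the labels, quantified, per the file headers, by version 9.5.1.1 of Feature Extraction. The deposited mean and local background intensity values were not normalized. The deposited log10 ratio (its sign turned) and the deposited series matrix values, read as log10 sample brightness, served as alternatives; how the authors adjusted the latter is not given in the sources used here. Local backgrounds marked as outliers were replaced by the array median, background was corrected by normexp (offset 50), and loess was applied to the log2 ratios of each array, in limma 3.58.1 (R 4.3.3). Of 42006 probes, 33099 were tested over all 36 arrays with 1 mean per group: those whose Cy3 signal stood well above background throughout some group, with Benjamini-Hochberg adjustment and a threshold of 0.05. Fold thresholds were 2 for classes and 4 for the ES-high and MEF-high sets. Values after ± are standard errors of the fit.

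Groups were taken from the labels. In each class the rule named up to 8 genes and 2 unnamed probes with the largest difference, with the higher group above background on both arrays and no overlap between groups. Members, lists and rules were chosen with earlier results of these data known. A bound sets the bright group's mean against, per dim array, the higher of the probe's own signal and the lowest signal well above background. Gene names came from exact matches to RefSeq promoter windows (GRCm38.p6). The fit was tested on simulated data. The number of arrays limits the precision.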

Additional observations from a re-analysis of the deposited data

How the results depend on the processing

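Of 216 alternative values for the counts and shares reported, 201 lay within 1.5 times the reported value and 15 did not. Classes are compared here as shares of the probes tested, reported as 9.03% not yet raised, 12.6% not yet lowered, 5.33% raised beyond and 1.0% lowered beyond. With the Feature Extraction ratio, probes at least 2-fold lower on day 6 numbered 6626 (3606 as reported), not yet raised probes made up 15.4% and lowered beyond probes 2.52%. The series matrix, which held 20183 of the tested probes, gave 7970 called higher (13787), 15.9% not yet raised and 2.71% lowered beyond. Uninduced day 1 as the starting state gave 1.67% lowered beyond. A 1.5-fold threshold gave 15.2% not yet raised, 19.8% not yet lowered, 8.84% raised beyond and 2.31% lowered beyond, and a 4-fold threshold gave 2.53%, 4.71%, 2.10% and 0.202% in the same order, by construction. For the other settings the cause was not tested, apart from the fewer probes in the series matrix. Leaving out single arrays gave 8.90% to 9.10% not yet raised, 12.5% to 12.7% not yet lowered, 5.22% to 5.41% raised beyond and 0.997% to 1.03% lowered beyond; leaving out landmark arrays (uninduced, ES, wild MEF, day 1, day 3 or doxycycline alone) was chosen after seeing the data. The labels number replicates without saying what a number shares, so they were not taken as pairs. Deviations of the same-numbered day 6 arrays with both drugs correlated at -0.07 with iPS, 0.53 with doxycycline alone of day 6, 0.37 with uninduced day 6 and 0.34 with both drugs of day 3, across probes. A replicate block gave 13781 higher and 10643 lower probes against iPS, and all 25 counts of calls over all probes, landmark comparisons included (chosen after seeing the data), moved by at most 1.02 times. All 291 alternative values of the 20 probes named kept their direction and stayed past the threshold. Gene lists could not be applied, and fits of the 4 arrays alone give no classes or sets. Probes near background have only a bound, and the groups hold 2 arrays each, from 1 clone.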
